A study of Homo sapiens with 6 samples.

Results

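Carbonic anhydrases and bicarbonate transporters were examined in libraries labelled as PTX-resistant MDA-MB-231 BCSC with and without LINC00115 KD. The genes were taken by symbol from the count table, and all 8 were found among its 22989 genes: Car2, Car5b, Car8, Car9, Car12, Car13, Slc4a2 and Slc4a7. MDA-MB-231 is an established human triple-negative breast cancer cell line. The BCSC are its paclitaxel (PTX)-resistant cells sorted for high aldehyde dehydrogenase activity. Both groups are labelled with this origin. Of the libraries, 3 are labelled LINC00115 KD, from cells with a short hairpin RNA against this long noncoding RNA, and 3 are labelled WT. The paper describes a control hairpin (shC) for KD experiments, and the label WT does not name a hairpin. The paper names the hairpin sh115-2 for the sequenced KD cells, while the labels number the KD libraries sh115-1 to sh115-3. The labels do not say that the replicates came from separate cultures, so p-values measure only the spread between these libraries. The study compared the groups to learn how LINC00115 acts on BCSC properties.

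Carbonic anhydrases convert carbon dioxide and water to bicarbonate and a proton, and back. Isozymes differ in where they work, which may be the cytosol, the mitochondrion or the outer cell surface, and a few members of the family have lost the activity. Tumour cells with high glycolysis produce much acid and export it, and the surface isozymes together with transporters of the SLC4 family are known for keeping the cell interior alkaline and the surroundings acidic. CA9 and CA12, the human names of Car9 and Car12, are known as genes induced by hypoxia through HIF1.

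The rows of the table carry mouse gene names, whereas the labels name human cells. Of its symbols, 4648 are predicted gene names of the mouse annotation that begin with Gm. Whether the cells behind the reads were human or mouse was not tested, and symbols are printed as the table gives them. No gene named LINC00115 is in the table, so the KD itself was not checked and every direction rests on the labels. The libraries held 36979221 to 38799331 counts. Of the markers that fit the cell line, Vim had 126885 to 145878 counts and Cd44 32751 to 36274, while Epcam had 0 to 5 and Pgr 0 to 3. Of the other receptor and epithelial genes, Krt18 had 4856 to 9369 counts, Erbb2 592 to 1061, Esr1 24 to 105 and Cdh1 1 to 31, and these 4 were higher in each KD library than in each WT library. Zeb1, a mesenchymal regulator that marks this line, had only 23 to 64 counts, and the lactate transporters given below also go against the labelled line. Of the 4 genes listed for the aldehyde dehydrogenase gate, Aldh3a1 had 779 to 907 counts in the WT and 1188 to 1295 in the KD libraries. Aldh1a1 had 8 to 17 counts in the WT and 39 to 52 in the KD libraries, while Aldh1a3 had 0 to 4 and Aldh1a2 0 to 1. Marker genes of other tissues differed between the groups. Each KD library lay above each WT library for 13 of 13 lung genes, whose summed level was 75.6 to 86.6 against 1.73 to 2.12 normalized CPM (counts as a share of library totals, which were scaled by the TMM method). Of these, 8 had no count in any WT library, among them Scgb1a1 and Sftpc. Of 13 kidney genes, 9 were higher and 1 was lower in this way, and the sum was 45.2 to 48.6 against 16.8 to 19.6. Over all 13497 genes tested, each KD library lay above each WT library for 37.8% and below each for 37.8%. Red cell genes summed to 1.66 to 2.48 against at most 0.106, with 4 of 6 higher, and leukocyte genes to 99.7 to 111 against 37.6 to 44.4, with 5 of 12 higher and 2 lower. Most of the leukocyte sum came from S100a8, with 87.9 to 99.0 normalized CPM in the KD and 32.2 to 34.4 in the WT libraries. Of the 2 lower, Cpa3 had 356, 325 and 68 counts in the WT libraries and 0 in each KD library. It was the most lowered of the 13497 genes tested. Csf1r, the other, had 2, 3 and 2 counts against 2, 0 and 1. Ptprc overlapped between the groups (8 to 13 counts in KD, 5 to 12 in WT), and Cd3e had no count in any library.

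The stretch of 250 bases upstream of the start of transcription is shown for human genes of isozymes. CA9 and CA12 are those of the isozymes that fell past both thresholds, and CA5B is that of an isozyme that did not. Whether the motifs marked below relate to the fold changes was not tested. The sequences are from RefSeq on GRCh38.p14, where 5 of the 8 genes had a match by human symbol (CA5B, CA9, CA12, SLC4A2 and SLC4A7); CA2, CA8 and CA13 are named only. Capitals mark ACGTG or GCGTG on either strand, the core letters of hypoxia response elements, which HIF1 is known to bind. CA9 lies on the plus strand at chr9:35673678-35673927, CA12 on the minus strand at chr15:63381847-63382096 and CA5B on the plus strand at chrX:15738020-15738269.
CA9: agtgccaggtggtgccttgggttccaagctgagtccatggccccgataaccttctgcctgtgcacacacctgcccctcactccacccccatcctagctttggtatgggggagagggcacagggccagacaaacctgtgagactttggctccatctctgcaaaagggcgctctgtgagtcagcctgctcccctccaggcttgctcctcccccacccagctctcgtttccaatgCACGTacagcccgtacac
CA12: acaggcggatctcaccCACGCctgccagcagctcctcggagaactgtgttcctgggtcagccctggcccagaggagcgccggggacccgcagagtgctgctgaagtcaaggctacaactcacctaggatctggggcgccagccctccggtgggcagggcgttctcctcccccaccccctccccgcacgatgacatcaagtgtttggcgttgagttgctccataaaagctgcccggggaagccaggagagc
CA5B: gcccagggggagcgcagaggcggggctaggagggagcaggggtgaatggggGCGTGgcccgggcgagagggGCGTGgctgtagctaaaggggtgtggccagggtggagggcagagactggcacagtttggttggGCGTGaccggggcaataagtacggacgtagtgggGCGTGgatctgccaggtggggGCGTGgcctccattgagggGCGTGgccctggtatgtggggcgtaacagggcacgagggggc

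The CA9 window held 1 ACGTG, on the strand opposite to the gene, 18 to 14 bases before the start, and no GCGTG. The CA12 window held 1 GCGTG, also on the strand opposite to the gene, 234 to 230 bases before the start. The CA5B window held 6 GCGTG and no ACGTG. Among all 35116 windows of this length, 18.5% held ACGTG, 32.2% held GCGTG and 43.2% held at least 1 of the motifs. Of the 4 SLC4A2 windows, 2 held ACGTG, there always as part of the palindrome CACGTG, which counts on both strands and occurs in 6.34% of windows. These 2 windows overlap, so some of their matches are the same bases. All 4 SLC4A2 windows held GCGTG, as did 1 of the 2 SLC4A7 windows, the other holding neither. A match of these letters is a description of the sequence and not a binding site. The windows are those of human genes, whereas the counts carry mouse symbols.

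Of the 8 genes, 5 were lower in the LINC00115 KD libraries by the test. Among the 8, 6 passed the filter on low counts and 2, Car2 and Car8, did not. Car9 and Car12, the isozymes among the 8 genes whose catalytic domain faces the outside of the cell, were called lower. A call required more than a 2-fold change and, in the quasi-likelihood test of edgeR, an adjusted p-value under 0.05. Of all 13497 genes tested, 9.98% were called lower and 10.2% higher at these thresholds. Car13, Slc4a2 and Slc4a7 also fell at an adjusted p-value under 0.05 but by less than 2-fold, which makes 5 of the 6 tested genes lower by the p-value alone, against a background of 36.7%. None was called higher, by edgeR or by DESeq2, and none was higher at an unadjusted p-value under 0.05. The median log2 fold change (KD minus WT) was −0.67 over the 6 genes and −0.0061 over all genes tested.

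Car9, the isozyme at the surface of hypoxic tumour cells, fell most. It had 819, 611 and 627 counts in the WT libraries and 144, 85 and 124 in the KD libraries. Every KD library lay far below every WT library, and WT replicate 1 was the highest. In normalized CPM the level went from 18.2 ± 3.10 to 3.10 ± 0.718 (mean ± SD here and below, n = 3 in each group). The log2 fold change was −2.55 with a standard error of 0.14 (edgeR, adjusted p = 2.28e-17), which is a 5.84-fold lower level. Its 95% interval was −2.84 to −2.25. Ordered from the most lowered, Car9 stood at place 209 of the 13497 genes.

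Car12 codes for another surface isozyme that passes the membrane. Its counts were 8684, 7920 and 7850 in the WT libraries and 4241, 3867 and 4004 in the KD libraries. The groups did not overlap, and again WT replicate 1 was the highest. The level fell from a mean of 216 ± 12.6 to 106.8 ± 2.46 normalized CPM, which in edgeR was a log2 fold change of −1.02 with a standard error of 0.04 (adjusted p = 2.20e-21). The 95% interval, from −1.10 to −0.93, spans the threshold of −1. Without WT replicate 1 the log2 fold change was −0.97, without KD replicate 2 it was −0.9966 and without KD replicate 3 it was −0.9995. In these fits Car12 stayed lower by the p-value but was under a fold change of 2, so that Car9 was the only one of the 8 genes called.

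Car13, a cytosolic isozyme, had 6789, 7366 and 7444 counts in the WT libraries and 4424, 4225 and 4180 in the KD libraries. The groups did not overlap, and the KD libraries lay close together. The level fell from a mean of 190.8 ± 9.21 to 113 ± 2.72 normalized CPM, which in edgeR was a log2 fold change of −0.75 with a standard error of 0.04 (adjusted p = 6.70e-18). Its 95% interval was −0.84 to −0.67, which does not reach a fold change of 2.

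Car5b, an isozyme of the mitochondrion, had 1140, 1405 and 1302 counts in the WT libraries and 1488, 1282 and 1456 in the KD libraries. Here the groups overlapped, with KD replicate 2 between the WT libraries. The level was 34.0 ± 3.50 against 37.2 ± 2.01 normalized CPM, with a log2 fold change of 0.13 that did not pass the test (adjusted p = 0.0893, edgeR). The 95% interval from −0.01 to 0.28 leaves room for a small increase but not for a decrease of the size of Car13. Without WT replicate 2 and without KD replicate 2 the adjusted p-value was 0.0169 and 0.0379, with log2 fold changes of 0.20 and 0.19.

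Car2, the cytosolic isozyme of red cells, kidney and bone-resorbing cells, was close to absent. It had 0, 1 and 0 counts in the WT libraries and 2, 9 and 9 in the KD libraries. Over each group these are 1 and 20 counts, a ratio of 20.0 after scaling, with an exact 95% interval of 3.19 to 828 that covers counting error only. When no filter was applied, Car2 was called higher (adjusted p = 0.0290, edgeR). The lung, kidney and red cell genes described above were higher in the same libraries, and their part in the Car2 counts was not tested.

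Car8 codes for a member of the family that lacks catalytic activity. It had 1 count in each WT library and 5, 1 and 2 counts in the KD libraries, so that the counts overlapped. The ratio of 2.66 had an exact 95% interval of 0.639 to 15.6, counting error only. A difference in Car8 was not detectable at this depth.

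**Figure D1:**
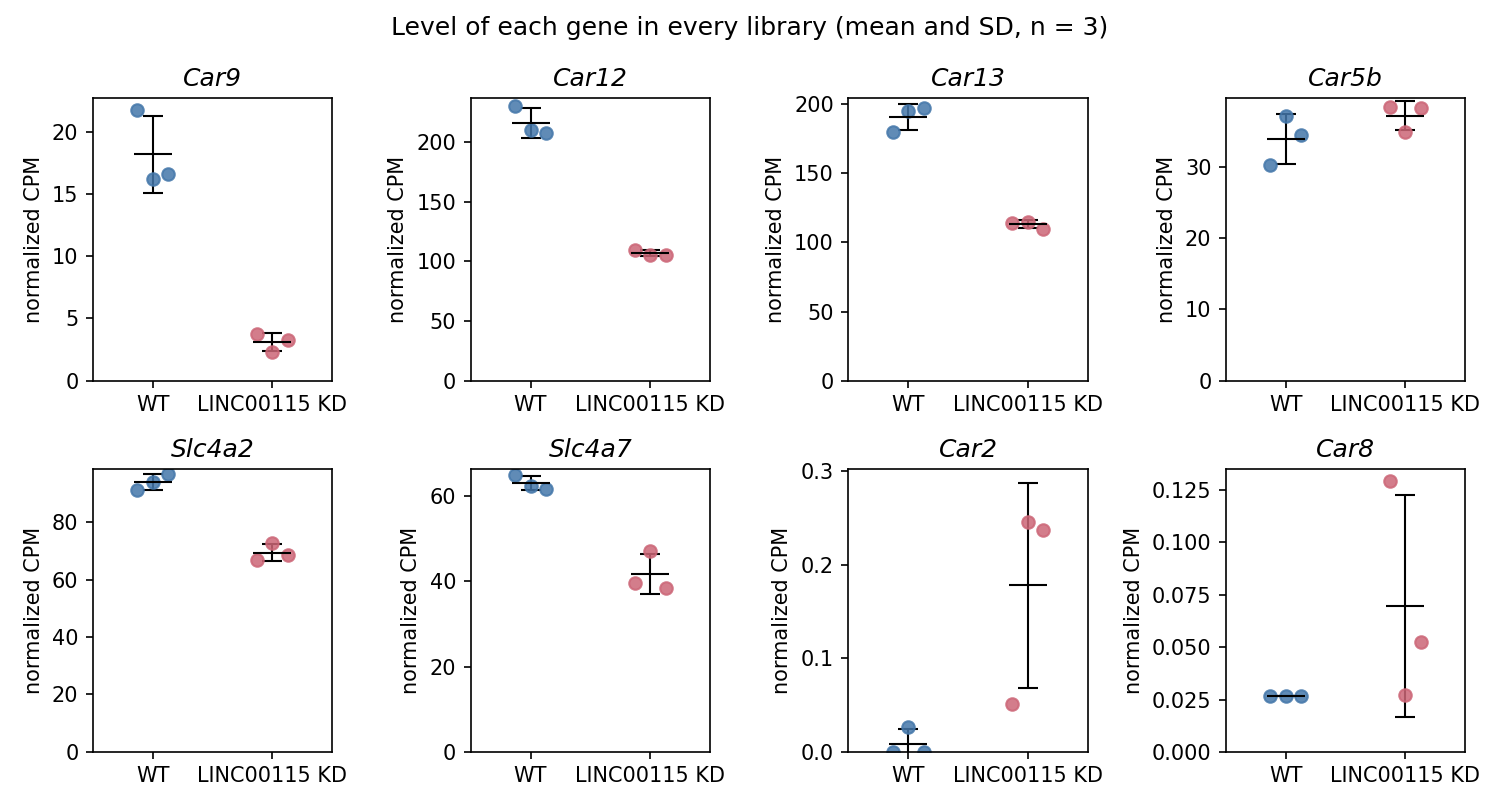
Level of the 8 genes in every library, in normalized CPM on an axis that starts at 0 and differs between panels (points, libraries in the order of replicates 1 to 3; lines, mean and SD, n = 3). For Car9, Car12, Car13, Slc4a2 and Slc4a7 all KD libraries lie below all WT libraries, for Car5b the groups overlap, and Car2 and Car8 stay under 0.3 normalized CPM.

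Most transporters of the SLC4 family move bicarbonate across the cell membrane. Slc4a2 codes for an anion exchanger, known as AE2, that exchanges bicarbonate for chloride and so loads cells with acid. It had 3432, 3546 and 3662 counts in the WT libraries and 2584, 2672 and 2608 in the KD libraries. The groups did not overlap. The level fell from a mean of 94.0 ± 2.91 to 69.4 ± 3.06 normalized CPM, which in edgeR was a log2 fold change of −0.44 with a standard error of 0.05 (adjusted p = 4.58e-10).

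Slc4a7 codes for a cotransporter of sodium and bicarbonate, known as NBCn1, that brings bicarbonate into cells and so works against acid. It had 2444, 2355 and 2333 counts in the WT libraries and 1534, 1731 and 1460 in the KD libraries. KD replicate 2 was the highest of its group and still below every WT library. The level fell from a mean of 63.0 ± 1.65 to 41.8 ± 4.72 normalized CPM, which in edgeR was a log2 fold change of −0.59 with a standard error of 0.06 (adjusted p = 1.81e-10). Thus a transporter that loads acid and one that removes it were both lower. In all, 5 of the 6 tested genes had all KD libraries below all WT libraries, which held for 37.8% of all genes tested.

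**Figure D2:**
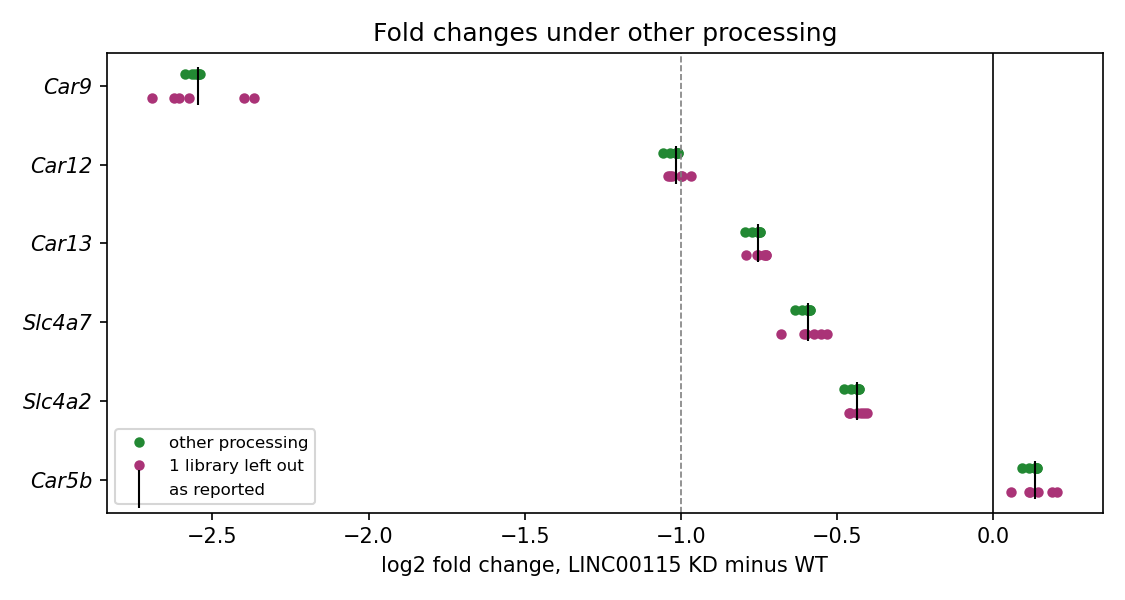
Log2 fold change (KD minus WT) of the 6 tested genes as reported (black line), with other scaling, filters, a replicate block or DESeq2 (green), and with 1 library left out (purple). The dashed line marks a fold change of 2. Car9 stays between −2.69 and −2.37, Car12 lies on both sides of the line, and Car5b stays between 0.06 and 0.20.

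Over the 13 carbonic anhydrases of the table, the summed level was 465, 461 and 457 normalized CPM in the WT libraries and 269.6, 262 and 263 in the KD libraries. The sum was thus 1.74-fold lower in the KD libraries, with no overlap (means 461 ± 3.84 and 265 ± 4.01, SD, n = 3 each). The make-up of these counts also differed. Car12 took 46.9% ± 2.36 of the family's counts in the WT and 40.3% ± 0.318 in the KD libraries, and Car9 took 3.94% ± 0.640 and 1.17% ± 0.257. The share of Car5b was 7.38% ± 0.798 against 14.1% ± 0.664, although its own level did not pass the test. The share of Car13 was 41.4% ± 2.32 against 42.7% ± 1.03, with overlap between the groups. These shares are of reads and not of molecules, since longer transcripts give more reads.

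**Figure D3:**
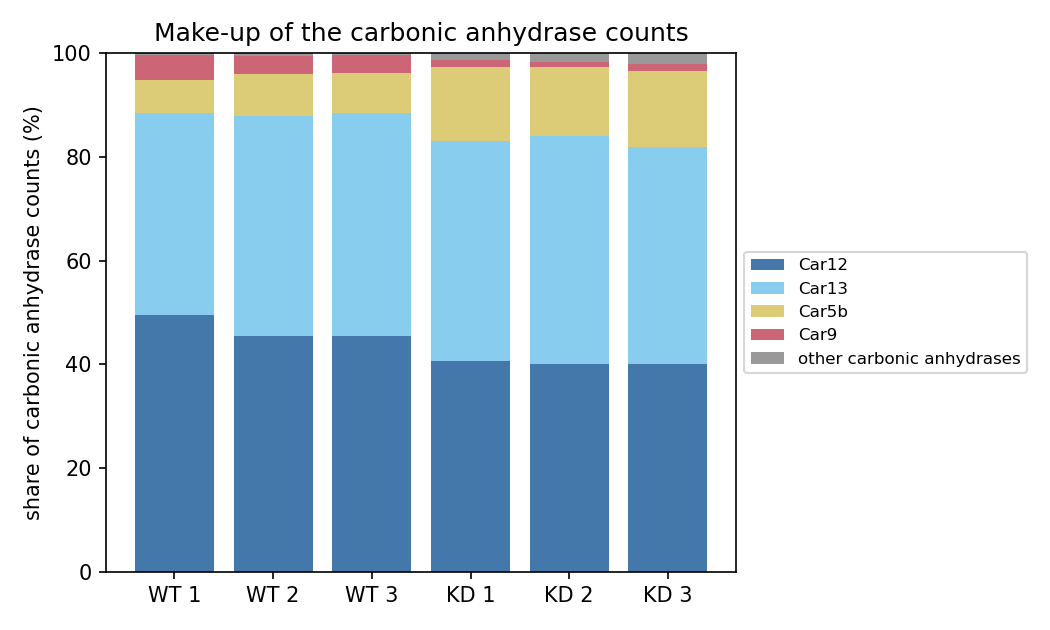
Share of all carbonic anhydrase counts (%) that each gene took in every library, stacked to 100%. From WT to KD libraries the shares of Car9 and Car12 were smaller and that of Car5b larger, while the share of Car13 overlapped.

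The other carbonic anhydrases had few counts. Of 10 listed, 7 were in the table and 3 passed the filter, of which 2 were called higher and 0 lower, by edgeR and by DESeq2, with 0 lower also at an unadjusted p-value under 0.05. Car6, the secreted isozyme of saliva, had 36, 46 and 21 counts in the WT libraries and 67, 79 and 101 in the KD libraries, a log2 fold change of 1.26 with a standard error of 0.35 (edgeR, adjusted p = 0.00172). Car7, a cytosolic isozyme known from neurons, had 12, 13 and 15 counts against 21, 33 and 35 (log2 fold change 1.15, adjusted p = 0.0362). The groups did not overlap for either gene. Car7 did not pass the test with the replicate block (adjusted p = 0.0686), without the filter (adjusted p = 0.0783) or in 5 of the 6 fits with a library removed, with an adjusted p-value up to 0.117.

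Car4, an isozyme anchored to the membrane that is known from lung and kidney, had no count in the WT libraries and 9, 14 and 21 in the KD libraries. Against the limit of 3 counts per library that a count of 0 allows, it was at least 4.89-fold higher. Car14, another surface isozyme, had 0, 0 and 1 counts against 1, 2 and 7. Of the surface isozymes, Car9 and Car12, which had the most counts, were lower, while Car4 had counts in the KD libraries only and at most 21. Car15, also bound to the membrane, was not lower. It had 30, 24 and 16 counts in the WT libraries and 24, 30 and 43 in the KD libraries. Its log2 fold change of 0.47 did not pass the test (adjusted p = 0.362, edgeR). The lung genes, 8 of 13 of which also had no count in any WT library, and the kidney genes were higher in the same KD libraries, and their part in the counts of Car4, Car6, Car7 and Car14 was not tested.

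A wider list of 82 genes for moving or sensing acid and base was not mainly lower. Of these, 76 were in the table and 47 were tested. By the p-value alone 14 were lower and 17 were higher, and past both thresholds 1 was lower and 3 were higher. These shares lie at or below the background of 36.7% either way without a fold threshold, and below 9.98% lower and 10.2% higher with it. The median log2 fold change was 0.04.

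Of the genes listed by family as bicarbonate transporters, 17 were in the table and 8 were tested. By the p-value, 1 was lower and 3 were higher. The list goes by gene family, and not every member carries bicarbonate. Slc4a11, which codes for a transporter of the SLC4 family known from the cornea, had 126, 117 and 150 counts in the WT libraries and 276, 269 and 247 in the KD libraries. It was called higher (log2 fold change 1.01, standard error 0.17, edgeR, adjusted p = 1.94e-06). Its log2 fold change was under the threshold with upper quartile factors (0.97), with library size alone (0.99), without WT replicate 1 (0.98), without WT replicate 2 (0.93) and without KD replicate 2 (0.98). Slc4a4, the sodium bicarbonate cotransporter of the kidney's proximal tubule, had 2, 1 and 0 counts in the WT libraries and 36, 17 and 32 in the KD libraries. The ratio of 28.3 had an exact 95% interval of 9.36 to 139.9, counting error only, and kidney genes were higher in the same libraries. Slc4a8, a relative of Slc4a7 that also carries sodium and bicarbonate, had 1069 to 1432 counts in the WT and 1192 to 1391 in the KD libraries, and its log2 fold change of 0.07 did not pass the test (adjusted p = 0.456).

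Sodium-proton exchangers, which push protons out in return for sodium, went both ways. Of 8 tested genes of this group and its cofactors, 4 were higher and 2 were lower by the p-value. Slc9a9, an exchanger of endosomes that was chosen after its values were seen, was the only one called higher, from 10 to 20 counts to 45 to 49 counts (log2 fold change 1.71, adjusted p = 0.00103).

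Proton-coupled lactate transport showed the single gene of the wider list that was called lower. Bsg codes for basigin, the partner that takes the lactate transporters MCT1 and MCT4 to the cell surface. It fell from a mean of 936 ± 37.2 to 416 ± 16.9 normalized CPM, with no overlap and a log2 fold change of −1.17 with a standard error of 0.03 (edgeR, adjusted p = 1.44e-25). Slc16a1, which codes for MCT1, had 9552, 10362 and 10139 counts in the WT libraries and 12813, 11895 and 13084 in the KD libraries, a log2 fold change of 0.33 (adjusted p = 5.11e-10). Slc16a3, which codes for MCT4, had 3, 3 and 4 counts against 1, 5 and 2 and could not be compared at this depth. MDA-MB-231 cells are known for using MCT4 and for lacking MCT1, so the counts of this pair of genes go against the labelled cell line.

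The V-ATPase, the pump that acidifies lysosomes, had 20 tested subunits and accessory genes, of which 7 were lower, 8 were higher and 0 passed a fold change of 2, by edgeR. Their median log2 fold change was −0.03. Of the regulators of bicarbonate and proton transport, 3 of 6 were lower and 1 was higher by the p-value. Of 2 tested acid sensors and 1 tested proton channel, none passed the test.

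**Figure D4:**
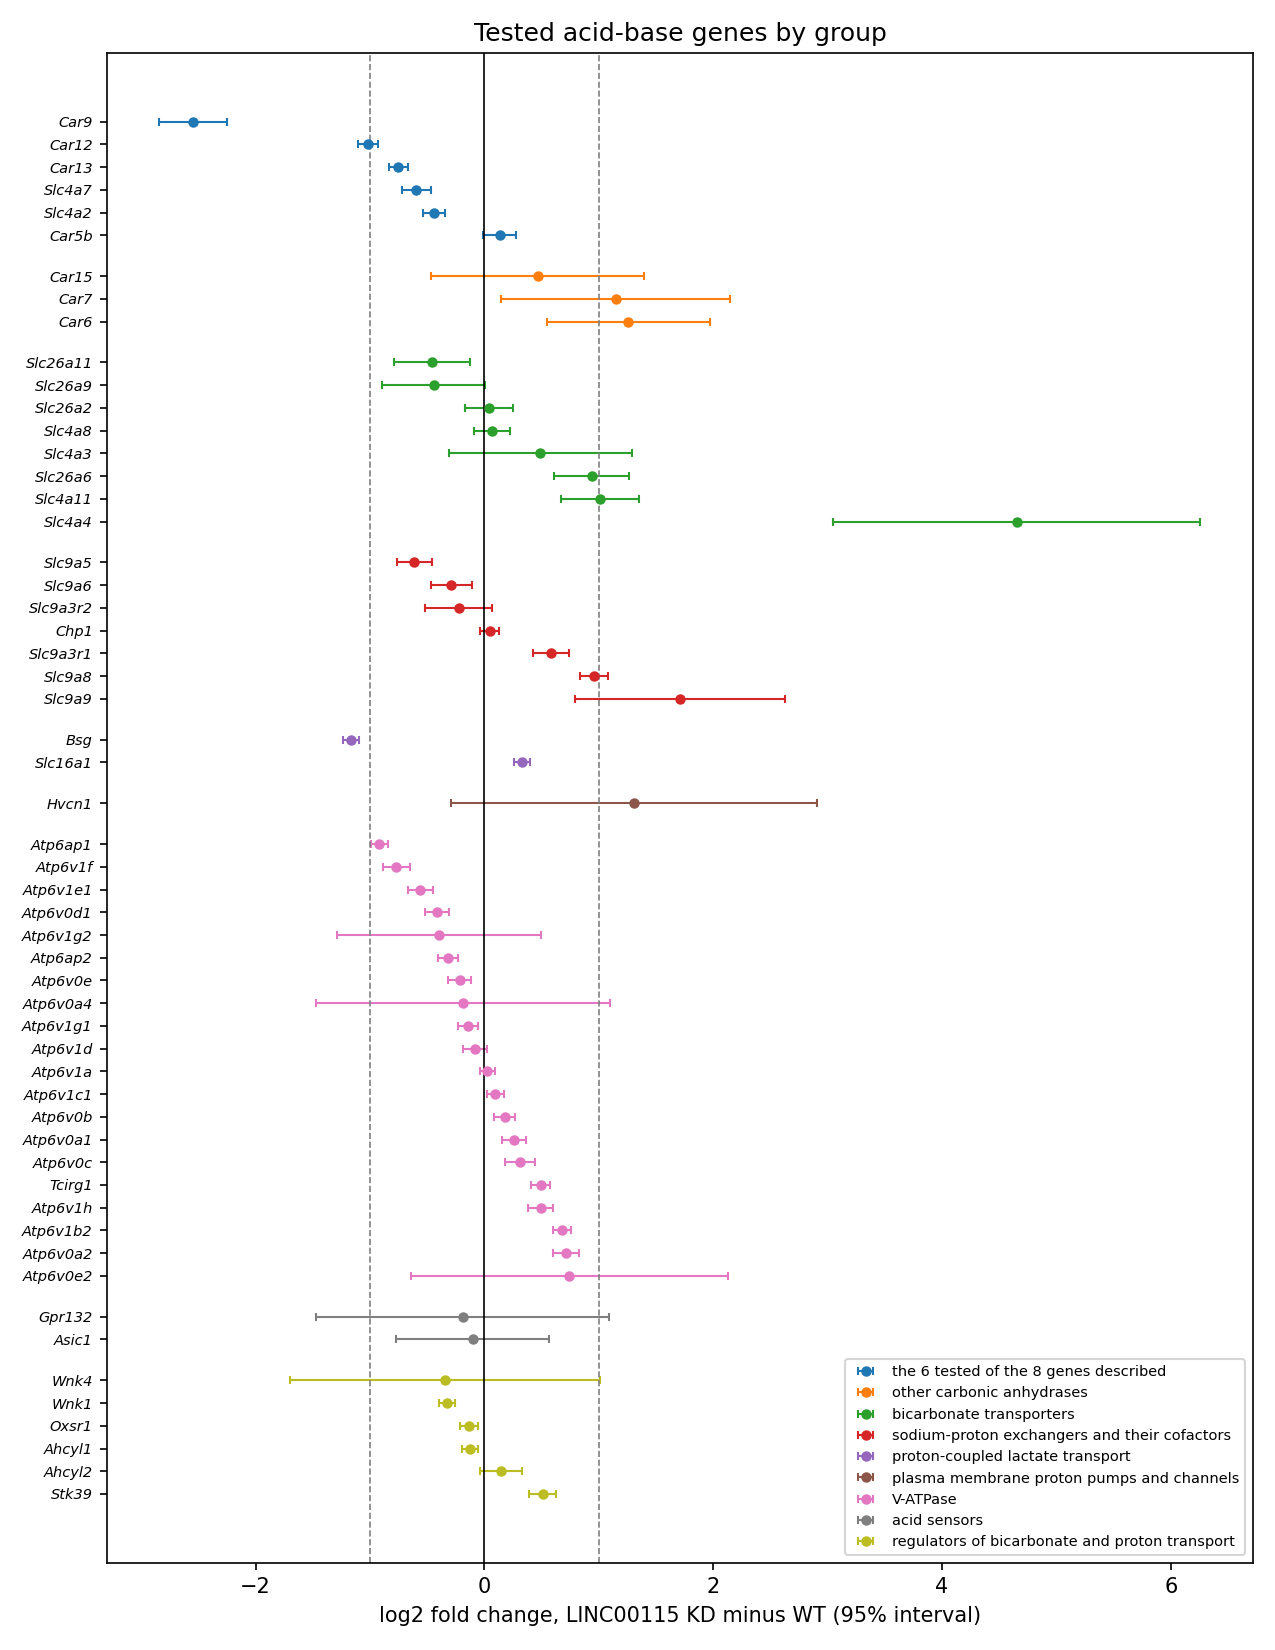
Log2 fold change (KD minus WT) with its 95% interval for tested carbonic anhydrases and acid-base transport genes, by group. Dashed lines mark a fold change of 2. Tested genes among the 8 described lie left of 0 except Car5b. Bicarbonate transporters, sodium-proton exchangers, lactate transport genes, V-ATPase genes and regulators lie on both sides of 0. The other carbonic anhydrases and the proton channel lie to its right, and the acid sensors to its left. Slc4a4, with at most 2 counts in a WT library, lies farthest to the right of those plotted.

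Since CA9 and CA12 are known targets of HIF1, other HIF1 target genes were set beside them. The paper picked out HIF1 signalling from its RNA sequencing of LINC00115 KD, so the counts below are not an independent test. Of 29 tested, 24 were lower and 1 was higher by the p-value, and 16 and 1 passed both thresholds, with a median log2 fold change of −1.32. The background shares, from 13497 genes, were 36.7% lower and 36.7% higher by the p-value, and 9.98% and 10.2% past both thresholds. With −2.55 Car9 fell by more than Vegfa (−1.74) and Pdk1 (−1.92), and with −1.02 Car12 fell by less than both. The differences between these genes were not tested. Hif1a itself, the oxygen-regulated subunit, had 9350, 9818 and 9601 counts in the WT libraries and 12990, 12271 and 12628 in the KD libraries, a log2 fold change of 0.40 (adjusted p = 1.11e-12, edgeR). Epas1, which codes for the related subunit HIF2α, had 0, 0 and 3 counts against 85, 57 and 74. It is known to be abundant in lung vessels, the lung genes were higher in the same libraries, and their part in the Epas1 counts was not tested.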

How the data were processed

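RNA-seq libraries of 3 KD and 3 WT samples were analysed. By the paper, adapters were trimmed and reads were mapped with HISAT2 to hg19 (the labels name hg38), and raw read counts per gene were deposited. Both are human references, whereas the deposited counts carry symbols of the mouse annotation, 4648 of them beginning with Gm. The stated mapping therefore does not account for the rows counted. The submitters' processing notes also name featureCounts and DESeq2. Which release of the annotation was used, and whether strand was, is not given in the sources used here, so reads of paralogs may be split in unknown ways. Columns were matched by name to the sample descriptions.

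Counts were tested with edgeR 4.0.16 in R 4.3.3 (limma 3.58.1): filterByExpr (minimum count 10, minimum total count 15), TMM scaling, the quasi-likelihood test with the group as the only term, and Benjamini-Hochberg adjustment over 13497 genes. The paper's thresholds were used for calls: adjusted p-values under 0.05 with more than 2-fold changes. Standard errors were derived from each log2 fold change and its F statistic. Intervals of ratios of low counts are exact. The pipeline was tested on simulated data. Chi-square tests of library pairs within a group gave 3.91 to 7.97 per degree of freedom, above the value of 1 that sampling noise gives, so none was a copy.

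The genes described and the lists were chosen with earlier results of these data known. Named from the lists were other carbonic anhydrases past both thresholds, up to 4 such genes per list and direction with 100 counts or more in each library of the group with the higher level, and 11 genes named whatever their result, of which 1 is counted in its list but not reported here by name or in the plots. Alternatives were other scalings, filters, DESeq2 1.42.0, a replicate block, leaving out each library and no fold threshold.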

Additional observations from a re-analysis of the deposited data

How the results depend on the processing

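For the 6 tested genes of the 8 described, 75 of 78 values under the alternatives kept their direction and their call by both thresholds together, and the 3 others were those of Car12 given above. By the p-value alone, Car5b passed in the 2 fits given above. The 2 genes called lower were 5 without a fold threshold, and 1 to 2 with a library left out. The 0 called higher were 1 (Car2) without the low-count filter, which let 22406 genes into the test. Of the other carbonic anhydrases, the 2 called higher were 1 with the replicate block, 3 without the filter and 1 to 3 with a library left out. Of the acid-base transport genes, the 1 lower was 14 and the 3 higher were 17 without a fold threshold, and 9 were higher without the filter. Over all genes, 1347 lower and 1381 higher became 4960 and 4952 without a fold threshold, and 903 were higher with at least 10 counts in every library, a filter under which 11966 genes were tested. Same-numbered libraries did not deviate together (correlations 0.0041, −0.0178 and −0.0175). These correlations cannot tell whether same-numbered libraries were prepared together. In the fit with the replicate block, Car9, Car12, Car13, Slc4a2, Slc4a7 and Car5b kept their calls. Depth limits Car2 and Car8, whose counts lie near the limit of 3.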
